A study of Mus musculus with 48 samples.

Results

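The genes described here are 40 genes of mitosis and of the spindle checkpoint, followed in the colon and the liver of mouse offspring. Their dams and they themselves received diets with supplemented or marginally deficient selenium and folate. They were chosen by their log2 differences between diet groups in earlier results of the same arrays, so their differences between diets are given as a description and not as independent evidence. Of the 40 genes, 39 were matched through the accession of a probe and were covered by 59 probes, out of 18434 named genes and 41174 probes on the array, whereas *Prc1* was not matched and has no value. With 1 probe for 25 genes and several for 14, the probe with the highest mean signal stood for a gene.

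The animals were C57/BL6 mice, sampled at an age of 12 weeks after a fast and a short period of refeeding. Groups are named by 2 letters, that of the dam's diet through gestation and lactation followed by that of the offspring's own diet from weaning on. H stands for selenium and folate supplemented above the recommended requirements, and L for what the paper calls a marginal deficiency of both. All diets shared a high-fat base. Groups HH, HL, LH and LL had 6 mice each in the colon and 5, 6, 6 and 6 mice in the liver, where 2 of the 6 HH arrays came from the same animal (HH mouse 3) and were averaged. RNA of the whole organ was labelled with Cy3 and hybridised on 2-colour Agilent arrays against a common reference in Cy5, always in this orientation. For that reference the paper names a pool of intestinal and liver RNA and the array description a whole pregnant mouse with foetus, so that a level below 0 on the log2 scale says only that the gene was lower in the organ than in that reference.

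Entry into mitosis is driven by the kinase *Cdk1* with its cyclins. The spindle checkpoint then holds the ubiquitin ligase APC/C inactive until every chromosome is attached to microtubules through its kinetochore, after which *Cdc20* and *Ube2c* allow the destruction of securin and of cyclin B, and separase opens the cohesin rings. Most of these genes are transcribed late in the cell cycle, through the DREAM and MuvB complexes with *Mybl2* and *Foxm1*. These complexes act at CHR elements (TTTGAA). The promoters below were also searched for CCAAT boxes, as a separate element. In the adult colon dividing cells sit in the lower crypt, whereas few hepatocytes of the adult liver divide.

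Promoters are shown for some of the members with a CHR sequence, because late cell cycle transcription depends on these elements. Those of *Bub1* and *Pttg1*, 2 members whose colon differences lay near 0, are shown beside them. RefSeq promoters (GRCm38.p6) were found for 34 members, and both strands of the 250 bases before the start were searched. TTTGAA was present in 13 members (38.2%, against 16% of all 32851 promoters), CCAAT in 26 (76.5%, against 33.8%) and both in 12 (35.3%, against 5.55%). The 120 bases that end at the base before the start are printed 5′ to 3′ in the direction of the gene, with TTTGAA or its complement TTCAAA and CCAAT or its complement ATTGG in capitals.
Cdk1 (chr10:69352913-69353032, - strand): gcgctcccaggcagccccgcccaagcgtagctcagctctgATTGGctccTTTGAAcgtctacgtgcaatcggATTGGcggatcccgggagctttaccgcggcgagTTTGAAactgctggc
Cdc20 (chr4:118437344-118437463, - strand): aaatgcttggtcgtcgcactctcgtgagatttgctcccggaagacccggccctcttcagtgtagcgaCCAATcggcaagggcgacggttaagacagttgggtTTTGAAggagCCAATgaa
Ube2c (chr2:164769809-164769928, + strand): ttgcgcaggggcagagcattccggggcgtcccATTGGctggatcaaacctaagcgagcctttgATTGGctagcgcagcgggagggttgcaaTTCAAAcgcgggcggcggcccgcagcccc
Kif11 (chr19:37376262-37376381, + strand): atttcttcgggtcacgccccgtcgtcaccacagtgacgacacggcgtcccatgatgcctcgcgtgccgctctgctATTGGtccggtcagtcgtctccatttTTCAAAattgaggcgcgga
Ncapg (chr5:45669805-45669924, + strand): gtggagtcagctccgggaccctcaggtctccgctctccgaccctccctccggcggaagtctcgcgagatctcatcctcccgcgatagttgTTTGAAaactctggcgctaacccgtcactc
Top2a (chr11:99024190-99024309, - strand): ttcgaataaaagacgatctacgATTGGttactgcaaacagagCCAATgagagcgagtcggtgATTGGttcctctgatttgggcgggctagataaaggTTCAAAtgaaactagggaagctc
Bub1 (chr2:127831860-127831979, - strand): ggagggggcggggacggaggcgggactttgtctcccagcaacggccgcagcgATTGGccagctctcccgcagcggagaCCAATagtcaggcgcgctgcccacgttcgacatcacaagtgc
Pttg1 (chr11:43425982-43426101, - strand): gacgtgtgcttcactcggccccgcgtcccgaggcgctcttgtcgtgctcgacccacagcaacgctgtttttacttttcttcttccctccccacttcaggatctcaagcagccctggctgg
The *Pttg1* sequence held neither element, and that of *Bub1* held CCAAT boxes but no TTTGAA. This was not particular to these 2 members. In the 250 bases, *Birc5*, *Mad2l1*, *Ndc80* and *Nuf2* also had neither element, and *Ccnb1*, *Plk1* and *Aurka* had CCAAT but no TTTGAA. A relation of the elements to the diet differences was not tested. The *Cdk1* sequence held both elements in more than 1 copy. A match of letters is a description of the sequence and does not show that a factor was bound.

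On the colon arrays 36 of the 39 genes were well above background in Cy3 on all 24 arrays, and *Espl1*, *Ncaph* and *Ttk* were so on 23, 23 and 22. For *Espl1* and *Ncaph* the remaining array was that of HL mouse 4, where the spot was left out as an outlier and no value was present. In the liver 27 genes were above background on all 24 arrays, and 12 were so on 1 to 20 arrays, among them *Kif11* and *Ttk* on 1, *Aurkb* and *Ndc80* on 2, *Ccnb1* and *Top2a* on 4 and *Ncapg* on 20. Liver values of these 12 genes are therefore close to the background and compress any difference. None of the 39 probes was saturated. Over all spots, 66.8 to 73.7% on the colon arrays and 55.1 to 66% on the liver arrays were above background, and the number of arrays limits the precision. The paper describes male offspring, yet a *Xist* signal over 9 on the log2 Cy3 scale was seen on 6 colon arrays (HH mice 1 and 5, HL mouse 5, LL mice 1, 3 and 5) and on 1 liver array (HL mouse 2), and counts without these mice are given below. The Y-linked *Eif2s3y* was at 6.02 to 7.21 on 3 of these colon arrays (HL mouse 5, LL mice 1 and 3) and on the liver array, whereas HH mice 1 and 5 and LL mouse 5 carried both signals, with *Eif2s3y* at 10.09 to 11.16 (log2 Cy3), against 9.78 to 11.54 on all other arrays. In LL colon mouse 4 the mean log2 ratio of a list of B and T cell markers was 2.22, against -0.65 to 0.17 in the other 23 colon mice, and that of 4 macrophage (Kupffer) markers was 0.30, against -2.63 to -2.28. In whole organs, fewer cells of a type and less RNA per cell cannot be told apart.

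Of the 39 genes, 37 were higher in the colon than in the liver, a contrast that had no part in their choice. A limma model of all 8 groups with slide as a random block called 31 of them higher in the colon (more than 1.5-fold, FDR under 0.05), where 15.7% of 41171 probes were called higher and 14.6% lower, and it called 0 lower. The median difference over the members was 1.46 on the log2 scale, and that over all probes was -0.01. No slide carried both organs. With the Cy3 channel alone 36 genes were called, and 31 without background correction, without the block, without the mice with *Xist* or without those of them with low *Eif2s3y*.

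The largest differences were those of *Mki67*, the proliferation antigen that coats mitotic chromosomes, at 9.97-fold, and of *Cenpe*, the kinetochore motor that brings chromosomes to the equator, at 9.04-fold. *Birc5*, the survivin subunit of the chromosomal passenger complex, was 6.52-fold higher, the condensin subunit *Ncapg* 5.88-fold, *Cdc20* 5.85-fold and the cyclin *Ccna2* 5.57-fold, each with an adjusted p under 0.05 from limma. Among the genes of mitotic entry, *Cdk1* was 2.21-fold, *Plk1* 4.07-fold and *Aurka* 2.56-fold higher in the colon. The 8 genes below the call included *Kif11*, *Ndc80*, *Kif2c*, *Mastl*, *Smc2* and *Ttk*, all with a higher mean in the colon. Of these, all but *Smc2* were well above background on 1 to 3 of the 24 liver arrays, so no fold is given for them. The other 2 were lower in the colon, namely the securin gene *Pttg1* (log2 difference -0.42) and the checkpoint kinase *Bub1* (log2 difference -0.33), both by less than 1.5-fold. The value of *Bub1* is that of the brighter of its 2 probes, which disagreed in the diet comparisons below. The probe for *Pttg1* had mean log2 ratios of 0.75 in the colon and 1.17 in the liver.

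**Figure D1:**
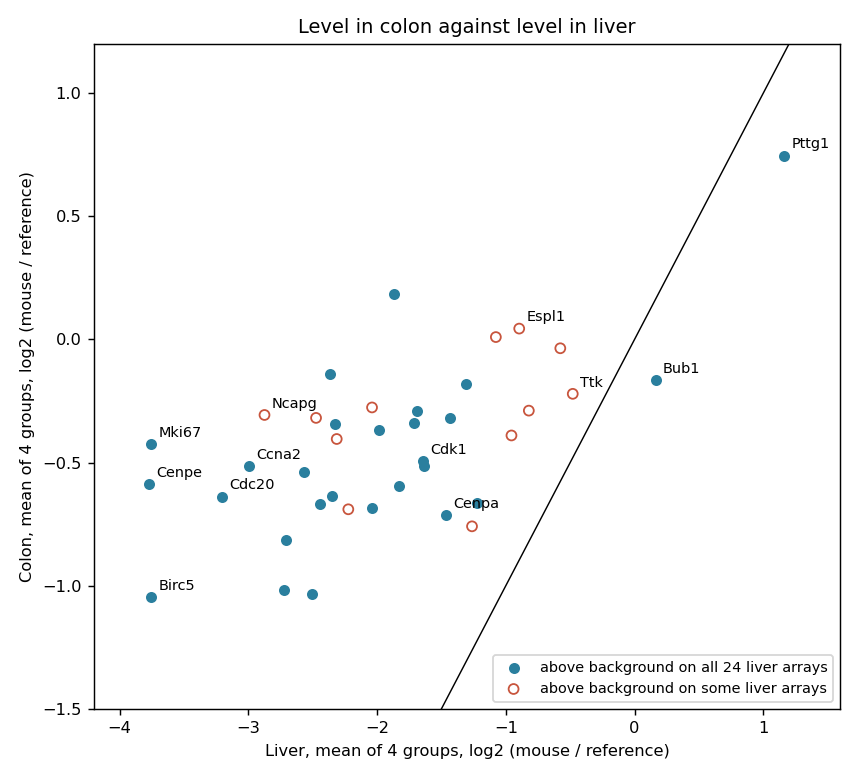
Mean log2 ratio of mouse over reference of each of the 39 genes in the liver (horizontal) and in the colon (vertical), averaged over the 4 diet groups. Points above the diagonal are higher in the colon, which holds for all genes but *Pttg1* and *Bub1*, the latter on the brighter of its 2 probes.

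In the colon the question was whether the diet of the dam (HH *vs.* LH), of the offspring (HH *vs.* HL) or of both (HH *vs.* LL) went with other levels of these genes. All but 1 or 2 genes were lower than in HH in each comparison, by small amounts, and none was called. The mean log2 ratio over the 39 genes was -0.26 ± 0.15 in HH, -0.53 ± 0.16 in HL, -0.46 ± 0.13 in LH and -0.44 ± 0.17 in LL (mean ± SD, n = 6). It ran from -0.43 to -0.08 with a median of -0.31 in HH, from -0.68 to -0.27 with a median of -0.58 in HL, from -0.65 to -0.32 with a median of -0.45 in LH and from -0.69 to -0.17 with a median of -0.45 in LL. HH mice 1 and 2 were the highest of all 24, and the groups overlapped.

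**Figure D2:**
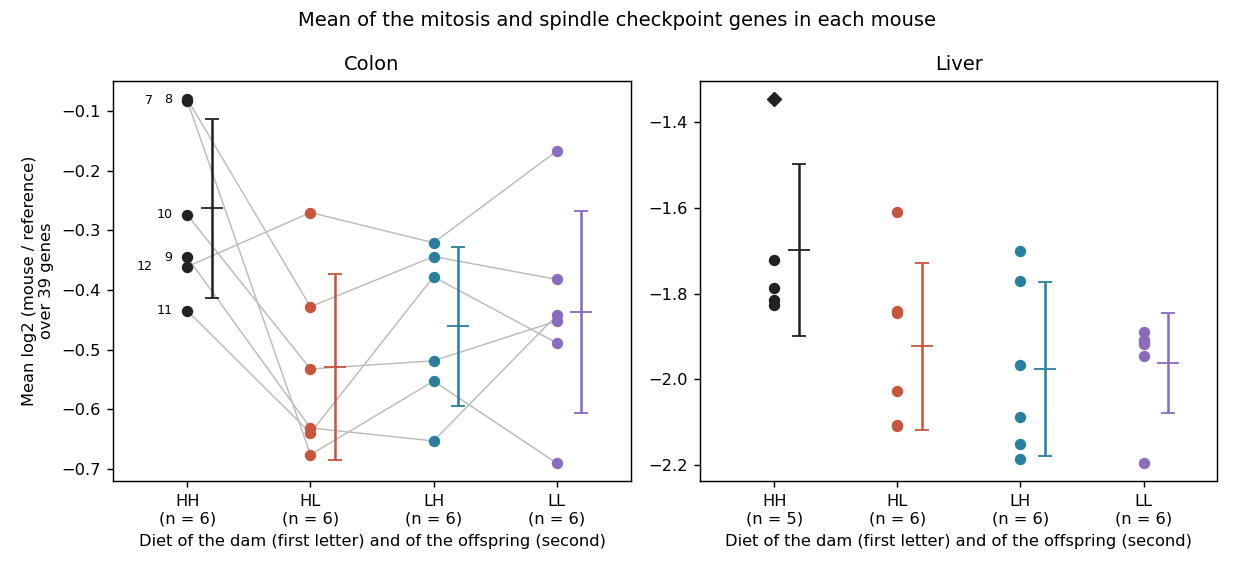
Mean log2 ratio of mouse over reference of the 39 genes in each mouse, by group, in the colon and the liver. Grey lines join colon mice of 1 slide, the numbers beside the HH colon points give the slide, and the diamond is the HH liver mouse measured on 2 arrays. HH colon mice of slides 7 and 8 lie at -0.08, and HH liver mouse 3 lies at -1.35, above the other liver mice.

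With slide as a block, limma called 0 of the 39 genes and 0% of 41173 probes in HH *vs.* LH, HH *vs.* HL and HH *vs.* LL. The lowest adjusted p among the members was 0.398 for HH *vs.* LH. At an unadjusted p under 0.05, 25 members were lower in LH (3.14% of all probes were lower), 30 were lower in HL (1.83%) and 18 were lower in LL (1.94%), and 0 were higher, where 4.94%, 1.46% and 1.5% of all probes were higher. Because the rule used this contrast, nothing is read from these counts. The median log2 difference was -0.20 in LH, -0.29 in HL and -0.16 in LL, while the median of all probes lay within 0.01 of 0. Below 0 were 37, 37 and 38 of the 39 genes, against 47.8%, 49.4% and 49.6% of all probes. These comparisons share the HH mice, so their values are set side by side without counting them as separate evidence. At that threshold 16 members were lower in all of LH, HL and LL (0.274% of all probes), and 6 in none (94.4%).

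The counts rested on the block and on single HH mice. Without the block they were 8, 17 and 4 for LH, HL and LL. Without HH mouse 1 they were 13, 22 and 7, with medians of -0.14, -0.19 and -0.11, and without HH mouse 6 they were 31, 36 and 26. The count for LH was 16 without HH mouse 2, and that for LL was 7 without LL mouse 1 and 11 without HH mouse 2, HH mouse 3 or LL mouse 2. Without the 6 mice with *Xist* they were 19, 18 and 5, with medians of -0.19, -0.20 and -0.13, without the 3 of them with low *Eif2s3y* they were 24, 28 and 9, and without LL mouse 4 they stayed within 1.5 times of the values above.

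Each colon slide carried 1 mouse of each group, and the differences were not even over slides. On slides 7 to 12 the mean difference over the members was -0.47, -0.26, -0.31, -0.24, 0.06 and 0.04 for LH, -0.59, -0.35, -0.29, -0.23, -0.21 and 0.09 for HL and -0.61, -0.30, -0.10, -0.18, -0.05 and 0.19 for LL. The mean was thus below HH on 4 slides for LH and on 5 for HL and LL, most so on slide 7. Of single genes, 5 were lower in LH on all 6 slides (*Bub1b*, *Cdk1*, *Fbxo5*, *Kif23* and *Kif2c*), 6 were lower in HL (*Aurka*, *Ccnb1*, *Incenp*, *Kif2c*, *Nusap1* and *Ttk*) and 0 were lower in LL, where 1.98%, 1.47% and 1.13% of all probes were. With slides 9 to 12 alone the counts at an unadjusted p under 0.05 were 2, 9 and 0. For 0 members did all mice of LH, HL or LL lie below all HH mice (0.068%, 0.0364% and 0.0291% of all probes did).

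Among the genes of mitotic entry, 8, 9 and 8 of 9 were lower at an unadjusted p under 0.05 in LH, HL and LL. The log2 ratio of *Cdk1*, the kinase that starts mitosis, was -0.53, -0.24 and -0.02 in HH, -1.03, -0.64 and -0.25 in LH, -0.84, -0.59 and -0.29 in HL and -0.85, -0.63 and 0.36 in LL (lowest, median and highest of 6 mice). LL mouse 6 lay above every HH mouse, and the groups overlapped. The difference from HH was -0.34 ± 0.11 in LH, -0.31 ± 0.11 in HL and -0.25 ± 0.11 in LL (log2 difference ± SE). A dimmer probe of *Cdk1* gave 0.09, -0.05 and -0.02, so the 2 probes disagreed.

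For *Ccna2*, the cyclin of S phase and early mitosis, the mean log2 ratio was -0.27 ± 0.16 in HH, -0.61 ± 0.33 in LH, -0.64 ± 0.34 in HL and -0.53 ± 0.46 in LL (mean ± SD). *Ccnb1*, the cyclin B1 partner of *Cdk1*, had -0.47 ± 0.31 in HH, -0.77 ± 0.15 in LH, -0.80 ± 0.16 in HL and -0.72 ± 0.22 in LL. *Plk1*, a kinase of centrosome maturation and mitotic exit, had -0.32 ± 0.16 in HH, -0.58 ± 0.36 in LH, -0.67 ± 0.34 in HL and -0.58 ± 0.31 in LL. In each of these genes the mean of HH was the highest. *Aurka*, the centrosomal kinase, had -0.50 ± 0.19 in HH, -0.67 ± 0.23 in LH, -0.81 ± 0.24 in HL and -0.76 ± 0.24 in LL. The differences from HH of *Ccnb2*, *Nek2* and *Tpx2*, the activator of *Aurka*, lay between -0.36 and -0.16. Those of *Mastl*, the Greatwall kinase that restrains the phosphatase PP2A, were -0.13, -0.22 and -0.17 in LH, HL and LL.

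Of the checkpoint genes 3, 3 and 1 of 4 were lower in LH, HL and LL at an unadjusted p under 0.05. *Bub1b*, the BubR1 protein that binds *Cdc20*, had a mean of -0.18 ± 0.17 in HH, -0.45 ± 0.28 in LH, -0.39 ± 0.24 in HL and -0.34 ± 0.35 in LL. *Mad2l1*, whose closed form blocks *Cdc20*, had -0.12 ± 0.15 in HH, -0.39 ± 0.16 in LH, -0.40 ± 0.23 in HL and -0.36 ± 0.32 in LL. The exception was *Bub1*, the kinase that recruits the checkpoint to the kinetochore, with differences of 0.01 ± 0.06 in LH, 0.03 ± 0.06 in HL and 0.03 ± 0.06 in LL. Its dimmer probe differed from HH by -0.21 in LH, -0.34 in HL and -0.20 in LL, so the value of *Bub1* depended on the probe, and with the mean of both probes it was -0.10, -0.16 and -0.08. The difference of *Ttk*, the Mps1 kinase at the top of the checkpoint, was -0.17 ± 0.08 in LH, -0.21 ± 0.08 in HL and -0.14 ± 0.08 in LL.

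At the step to anaphase, 4, 3 and 2 of 5 genes were lower in LH, HL and LL at an unadjusted p under 0.05. The log2 ratio of *Cdc20*, which activates the APC/C, was -0.77, -0.47 and -0.13 in HH, -1.06, -0.51 and -0.33 in LH, -1.23, -0.80 and -0.49 in HL and -1.04, -0.65 and -0.37 in LL (lowest, median and highest). Its difference was -0.19 ± 0.09 in LH, -0.40 ± 0.09 in HL, the largest of all members in that comparison, and -0.27 ± 0.09 in LL. The HL mice lay lowest, with overlap.

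*Ube2c*, the conjugating enzyme of the APC/C, ranged over -0.91, -0.45 and 0.04 in HH, -0.96, -0.82 and -0.50 in LH, -1.10, -0.75 and -0.50 in HL and -0.99, -0.72 and -0.35 in LL. The difference in LH was -0.36 ± 0.10, the largest of that comparison, beside -0.34 ± 0.10 in HL and -0.28 ± 0.10 in LL. The spread of HH was wider than that of the other groups for this gene. *Fbxo5*, the APC/C inhibitor Emi1, had a mean of -0.02 ± 0.11 in HH, -0.31 ± 0.15 in LH, -0.23 ± 0.27 in HL and -0.16 ± 0.25 in LL.

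*Pttg1*, the securin that keeps separase inactive, ranged over 0.51, 0.70 and 0.93 in HH, 0.64, 0.75 and 0.91 in LH, 0.49, 0.79 and 0.92 in HL and 0.49, 0.74 and 0.90 in LL. Its differences were 0.05 ± 0.06 in LH, 0.03 ± 0.06 in HL and -0.0021 ± 0.06 in LL, all smaller than their SE. *Espl1*, the protease separase that securin inhibits, had a mean of 0.20 ± 0.35 in HH, -0.03 ± 0.20 in LH, -0.06 ± 0.28 in HL, where 1 of the 6 values was left out as an outlier spot, and 0.05 ± 0.19 in LL. A single probe covered each of securin and separase.

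At an unadjusted p under 0.05 all 4 genes of the chromosomal passenger complex were lower in LH and HL and 3 in LL. *Birc5* ranged over -1.16, -0.81 and -0.50 in HH, -1.39, -1.09 and -0.84 in LH, -1.48, -1.21 and -0.68 in HL and -1.55, -1.20 and -0.46 in LL. Its difference was -0.28 ± 0.11 in LH, -0.39 ± 0.11 in HL and -0.30 ± 0.11 in LL, the last being the largest of that comparison. *Aurkb*, the kinase of the complex, had a mean of -0.08 ± 0.20 in HH, -0.30 ± 0.32 in LH, -0.42 ± 0.36 in HL and -0.30 ± 0.33 in LL. *Cdca8* (borealin) and the scaffold *Incenp* differed from HH by -0.30 to -0.12.

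Of the kinetochore genes 0, 4 and 1 of 5 were lower in LH, HL and LL at an unadjusted p under 0.05. All 5 had a difference below 0 in each comparison. *Cenpe* had a mean of -0.43 ± 0.27 in HH, -0.50 ± 0.15 in LH, -0.82 ± 0.32 in HL and -0.60 ± 0.25 in LL. *Cenpa*, the histone variant that marks the centromere, had -0.51 ± 0.42 in HH, -0.70 ± 0.22 in LH, -0.85 ± 0.31 in HL and -0.79 ± 0.26 in LL. *Ndc80*, the outer kinetochore protein that grips microtubules, had -0.29 ± 0.08 in HH, -0.45 ± 0.21 in LH, -0.45 ± 0.31 in HL and -0.38 ± 0.31 in LL. The differences of *Cenpf* were -0.04, -0.29 and -0.14, and those of *Nuf2*, the partner of *Ndc80*, -0.17, -0.32 and -0.14. Tested directly, LH was above HL at an unadjusted p under 0.05 for 3 members (4.74% of all probes were higher), namely *Cenpe* (0.33 ± 0.11), *Cenpf* (0.25 ± 0.10) and *Cdc20* (0.21 ± 0.09), none with an adjusted p under 0.05 (lowest 0.492). The 2 largest differences the other way were those of *Ncaph* (-0.13 ± 0.09) and *Top2a* (-0.09 ± 0.10). The other 2 probes of *Cenpe* gave -0.12 and -0.16 in LH and -0.10 and -0.07 in HL, and they did not share this pattern. Without HL mouse 1, HL mouse 5 or LH mouse 5 the count of 3 was 1, without LH mouse 3 it was 5, and without the mice with *Xist* it was 2.

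Among spindle motors and midzone proteins 3, 4 and 2 of 5 were lower in LH, HL and LL at an unadjusted p under 0.05. *Kif11*, the Eg5 motor that separates the poles, had a mean of -0.62 ± 0.29 in HH, -0.80 ± 0.08 in LH, -0.80 ± 0.27 in HL and -0.81 ± 0.27 in LL. *Kif20a*, a motor of the central spindle and of cytokinesis, had -0.67 ± 0.39 in HH, -0.81 ± 0.20 in LH, -0.96 ± 0.18 in HL and -0.82 ± 0.19 in LL. The microtubule binding protein *Nusap1* differed by -0.20, -0.34 and -0.24 in LH, HL and LL. *Kif23* and the depolymerase *Kif2c* differed by -0.23 to -0.13.

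Of the genes of chromosome structure 3, 3 and 1 of 7 were lower in LH, HL and LL at an unadjusted p under 0.05. *Ncapg* had a mean of -0.08 ± 0.27 in HH, -0.37 ± 0.17 in LH, -0.47 ± 0.21 in HL and -0.30 ± 0.22 in LL. *Top2a*, the topoisomerase that untangles sister chromatids, had -0.26 ± 0.12 in HH, -0.53 ± 0.40 in LH, -0.44 ± 0.21 in HL and -0.38 ± 0.30 in LL. *Mki67* had -0.29 ± 0.52 in HH, -0.42 ± 0.20 in LH, -0.58 ± 0.24 in HL and -0.40 ± 0.28 in LL. Its HL value included mouse 5 at -1.04, well below the other HL mice. *Smc2*, the ATPase core of condensin, had -0.55 ± 0.07 in HH, -0.74 ± 0.17 in LH, -0.74 ± 0.21 in HL and -0.63 ± 0.36 in LL, while its partner *Smc4* differed by -0.02, -0.23 and -0.03. Of the 4 *Smc2* probes, 1 lay between -0.04 and 0.04. *Ncapd2* and *Ncaph* differed by -0.29 to -0.05.

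**Figure D3:**
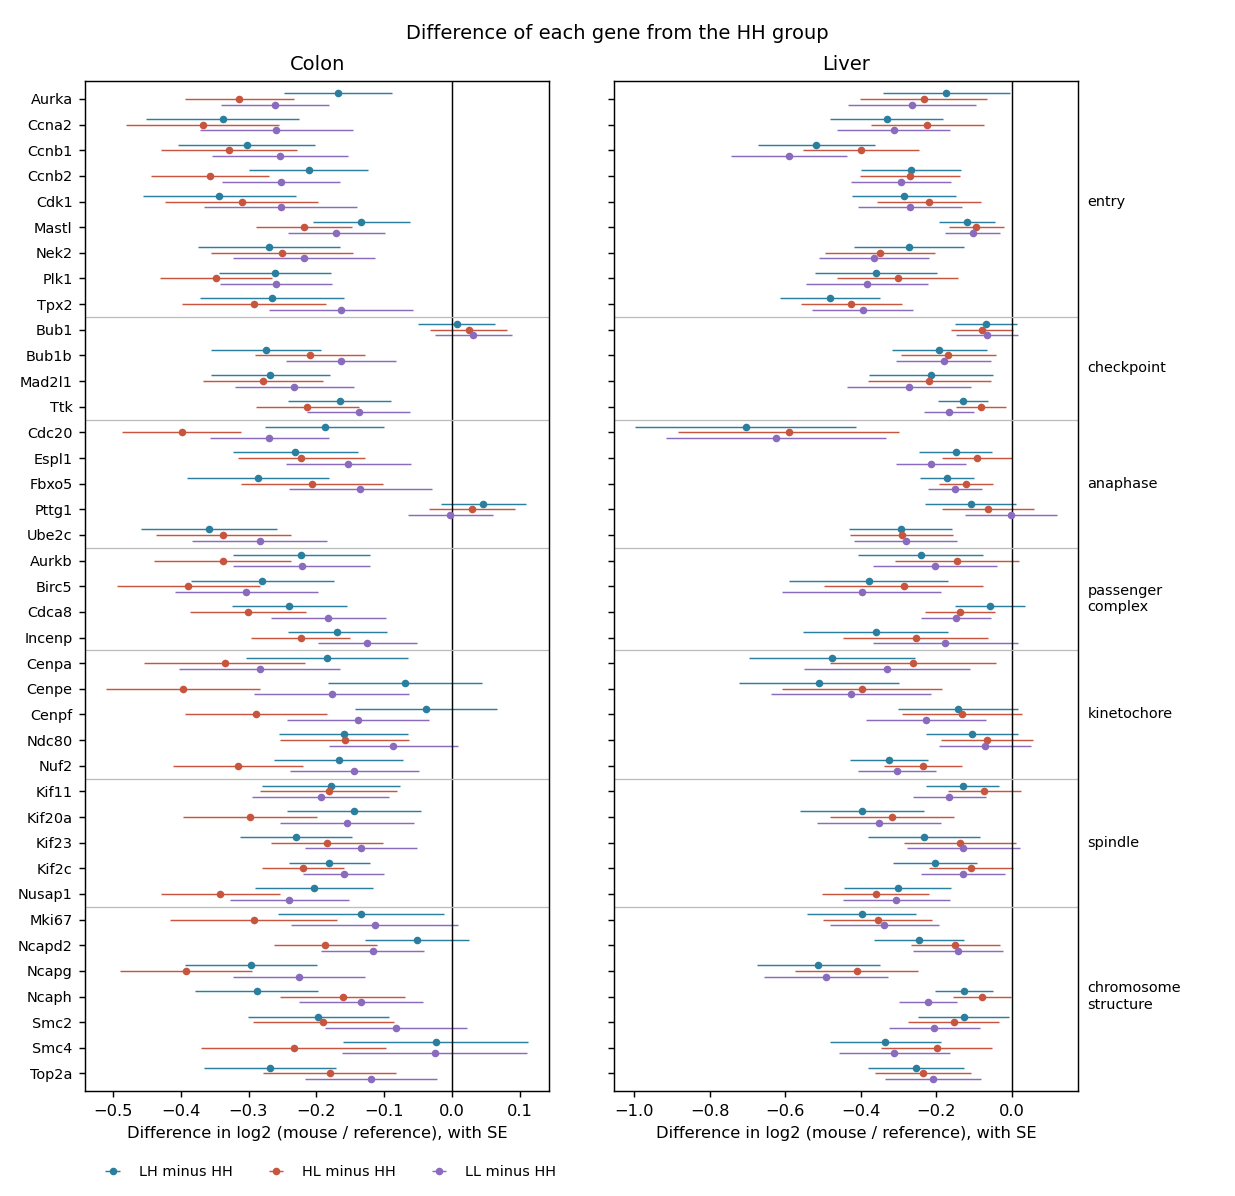
Log2 difference from HH of each gene in LH, HL and LL, with bars of 1 SE, for the colon and the liver. Nearly all points lie left of 0, and in the colon *Pttg1* and *Bub1* lie at it.

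LH and LL, and HL and LL, differed at an unadjusted p under 0.05 for 0 members in the colon, and 0 were called (background 0%). Of all probes 4.4% were lower and 2.78% higher in LL than in LH, and 1.07% were lower and 1.34% higher in LL than in HL. The largest differences of LL from HL were those of *Cenpe* (0.22) and *Smc4* (0.21) and, below 0, *Pttg1* (-0.03) and *Kif11* (-0.01). Those of LL from LH were *Ncaph* (0.15) and *Fbxo5* (0.15) and, below 0, *Cenpe* (-0.11) and *Cenpf* (-0.10). The interaction of both diets was above 0 at an unadjusted p under 0.05 for 24 members (2.02% of all probes), with a median of 0.31 and a lowest adjusted p of 0.99. Its largest values were those of *Ncapg* (0.46) and *Ccna2* (0.45), and its lowest those of *Pttg1* (-0.08) and *Bub1* (-0.00094). It uses the same HH mice, and it was 5 without the block, 12 without the mice with *Xist*, 16 without HH mouse 1 and 33 without HH mouse 6. Averaged over the diet of the dam, 16 members were lower with diet L in the offspring at an unadjusted p under 0.05 (3.2%), led by *Cenpe* (-0.25) and *Cdc20* (-0.24). It was 6 members without the block and 9 without the mice with *Xist*. This count was 10 without HH mouse 1, LL mouse 1 or LH mouse 5. Averaged over the diet of the offspring, *Ube2c* (-0.15) was the 1 member lower with diet L in the dam at that threshold (2.02%). Without single mice this count lay between 0 and 12, and without the mice with *Xist* it was 3.

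In the liver the members were again lower than HH, with a wider spread, and none was called. The mean log2 ratio of the 39 genes was -1.70 ± 0.20 in HH (n = 5), -1.92 ± 0.19 in HL, -1.98 ± 0.20 in LH and -1.96 ± 0.12 in LL (n = 6 each). The 5 HH mice had -1.83, -1.81, -1.35, -1.72 and -1.79. In HL the mean ran from -2.11 to -1.61 with a median of -1.94, in LH from -2.19 to -1.70 with a median of -2.03 and in LL from -2.20 to -1.89 with a median of -1.91. HH mouse 3 lay above all others, and its 2 arrays correlated at 0.805 in their deviations from the group mean over all probes, against at most 0.261 for other HH pairs. All 5 HH mice lay above all 6 LL mice, whereas HH overlapped with HL and LH.

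limma called 0 of the 39 genes and 0% of 41171 probes in the 3 comparisons with HH. At the same fold and FDR the paper, which counts 6 animals per group, reports differentially expressed liver probes in all 3. Here the 2 arrays of HH mouse 3 were averaged, and the cause of the unlike counts was not tested. At an unadjusted p under 0.05, 17 members were lower in LH (6.15% of all probes), 8 in HL (2.22%) and 17 in LL (2.19%), and 0 were higher, where 5.84%, 2.15% and 1.26% of all probes were higher. Among members, HH *vs.* LH held the lowest adjusted p, 0.225. All 39 genes had a difference below 0 in each comparison, with a median of -0.25 in LH, -0.22 in HL and -0.27 in LL, while 52.7%, 52.2% and 52.9% of all probes were below 0. Because the rule used these differences, nothing is read from these counts. Without HH mouse 3 the counts were 5, 1 and 7 and the medians -0.18, -0.12 and -0.16. The count for LH was also 7 without LH mouse 2, 6 without LH mouse 6 and 10 without LH mouse 5. That for HL was 18 without HL mouse 4, and that for LL was 7 without LL mouse 4 and 11 without LL mouse 5. Without the liver with *Xist* the counts were 15, 6 and 16. With slide as a block they were 17, 7 and 12 with the first array of HH mouse 3 and 21, 9 and 20 with its second. In HH mouse 3 the mean log2 ratio of 4 Kupffer cell markers was 3.47, against 2.05 to 3.08 in the other HH mice, and that of 19 DNA replication genes was -0.90, against -1.40 to -1.31. Their part in the result was not tested.

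At an unadjusted p under 0.05, 5, 3 and 6 of 9 mitotic entry genes were lower in LH, HL and LL in the liver. For anaphase the counts were 3, 1 and 3 of 5, for the kinetochore 3, 1 and 1 of 5 and for the spindle 2, 1 and 2 of 5. For chromosome structure they were 4, 2 and 4 of 7. No passenger gene passed this threshold, although all 4 were below 0 in each comparison. The checkpoint gene *Ttk* passed it in LL only, and all 4 checkpoint genes were below 0 in each comparison. *Cdc20* had log2 ratios of -3.05, -3.05, -1.16, -2.82 and -3.42 in the 5 HH mice. It ranged over -3.90, -3.49 and -2.85 in LH, -3.70, -3.31 and -2.68 in HL and -3.64, -3.42 and -2.98 in LL (lowest, median and highest). The difference was -0.70 ± 0.29 in LH, -0.59 ± 0.29 in HL and -0.62 ± 0.29 in LL, the largest of all members in each comparison, and -0.32, -0.21 and -0.24 without HH mouse 3.

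*Ccnb1*, *Cdk1* and *Ncapg* were the 3 members whose LL mice all lay below all HH mice (0.248% of all probes did so), and 0 members did so in LH (0.845%) or HL (0.0802%). The log2 ratios of *Cdk1* were -1.54, -1.60, -0.91, -1.58 and -1.58 in HH and -1.90, -1.70 and -1.61 in LL, with a difference of -0.27 ± 0.14. *Ccnb1* had -2.19, -2.15, -1.08, -1.97 and -1.76 in HH and -2.71, -2.38 and -2.26 in LL. It was well above background on 2 HH arrays, both of HH mouse 3, and on 0 LL arrays, so no fold is given for it. In all, 9 of the 12 dim genes were above background in HH on 1 or 2 arrays of 1 mouse and on 0 arrays of at least 1 other group, so the liver differences from HH of these genes lie between values that were mostly not well above background. *Ncapg* had -2.75, -2.72, -1.95, -2.58 and -2.53 in HH and -3.35, -2.95 and -2.80 in LL, with -0.49 ± 0.16. Without HH mouse 3 the difference of *Ncapg* in LL was -0.35.

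Differences from HH in the liver were -0.48 ± 0.13, -0.42 ± 0.13 and -0.40 ± 0.13 for *Tpx2* in LH, HL and LL. For *Plk1* they were -0.36 ± 0.16, -0.30 ± 0.16 and -0.38 ± 0.16, and for *Ccna2* -0.33 ± 0.15, -0.22 ± 0.15 and -0.31 ± 0.15. Those of *Mki67* were -0.40 ± 0.14, -0.35 ± 0.14 and -0.34 ± 0.14, those of *Cenpe* -0.51 ± 0.21, -0.40 ± 0.21 and -0.43 ± 0.21 and those of *Cenpa* -0.48 ± 0.22, -0.26 ± 0.22 and -0.33 ± 0.22. For *Birc5* they were -0.38 ± 0.21, -0.29 ± 0.21 and -0.40 ± 0.21, with SE values that kept each above an unadjusted p of 0.05. Mean log2 ratios of HH, LH, HL and LL were -2.22, -2.51, -2.51 and -2.50 for *Ube2c*, -2.43, -2.83, -2.75 and -2.78 for *Kif20a* and -1.87, -2.04, -2.10 and -2.13 for *Aurka*. They were -1.57, -1.77, -1.74 and -1.75 for *Bub1b*, -1.25, -1.47, -1.47 and -1.53 for *Mad2l1* and -1.20, -1.37, -1.32 and -1.35 for *Fbxo5*. *Smc2* had -1.09, -1.22, -1.25 and -1.30 and *Pttg1* 1.21, 1.1, 1.15 and 1.21. The dim genes *Espl1* (-0.78, -0.93, -0.87 and -0.99), *Aurkb* (-1.89, -2.13, -2.03 and -2.09), *Ndc80* (-0.89, -1.0, -0.96 and -0.96), *Kif11* (-1.17, -1.30, -1.24 and -1.33) and *Top2a* (-2.13, -2.39, -2.37 and -2.34) were above background on 1 to 5 of 24 arrays.

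Among liver groups other than HH, 0 members differed at an unadjusted p under 0.05 and 0 were called. Of all probes 1.66% were lower and 1.43% higher in LL than in HL, 3.17% lower and 3.21% higher in LL than in LH, and 1.06% lower and 0.678% higher in LH than in HL. The largest differences were those of *Cenpa* (-0.21), *Smc4* (-0.14), *Cdca8* (0.08) and *Nek2* (0.08) for LH against HL. For LL against HL they were those of *Ccnb1* (-0.19), *Ncaph* (-0.14), *Incenp* (0.08) and *Pttg1* (0.06). For LL against LH they were those of *Ncaph* (-0.09), *Nek2* (-0.09), *Incenp* (0.18) and *Cenpa* (0.15). At an unadjusted p under 0.05, 7 members were lower with diet L in the dam (2.69%), with the largest differences in *Cdc20* (-0.37) and *Ccnb1* (-0.35). With diet L in the offspring 2 were lower (0.685%), with the largest differences in the same genes (-0.26 and -0.24). The interaction was above 0 at this threshold for 2 members (5.4%), with its largest values in *Cdc20* (0.67) and *Tpx2* (0.51). Without the liver with *Xist* these counts were 8, 1 and 1. None of these had an adjusted p under 0.05. Whether the differences from HH were unequal between colon and liver was tested in the model of all 8 groups, and 0 of the 39 members passed an unadjusted p under 0.05 for LH (11.3% of all probes), for HL (3.61%) or for LL (3.98%).

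**Figure D4:**
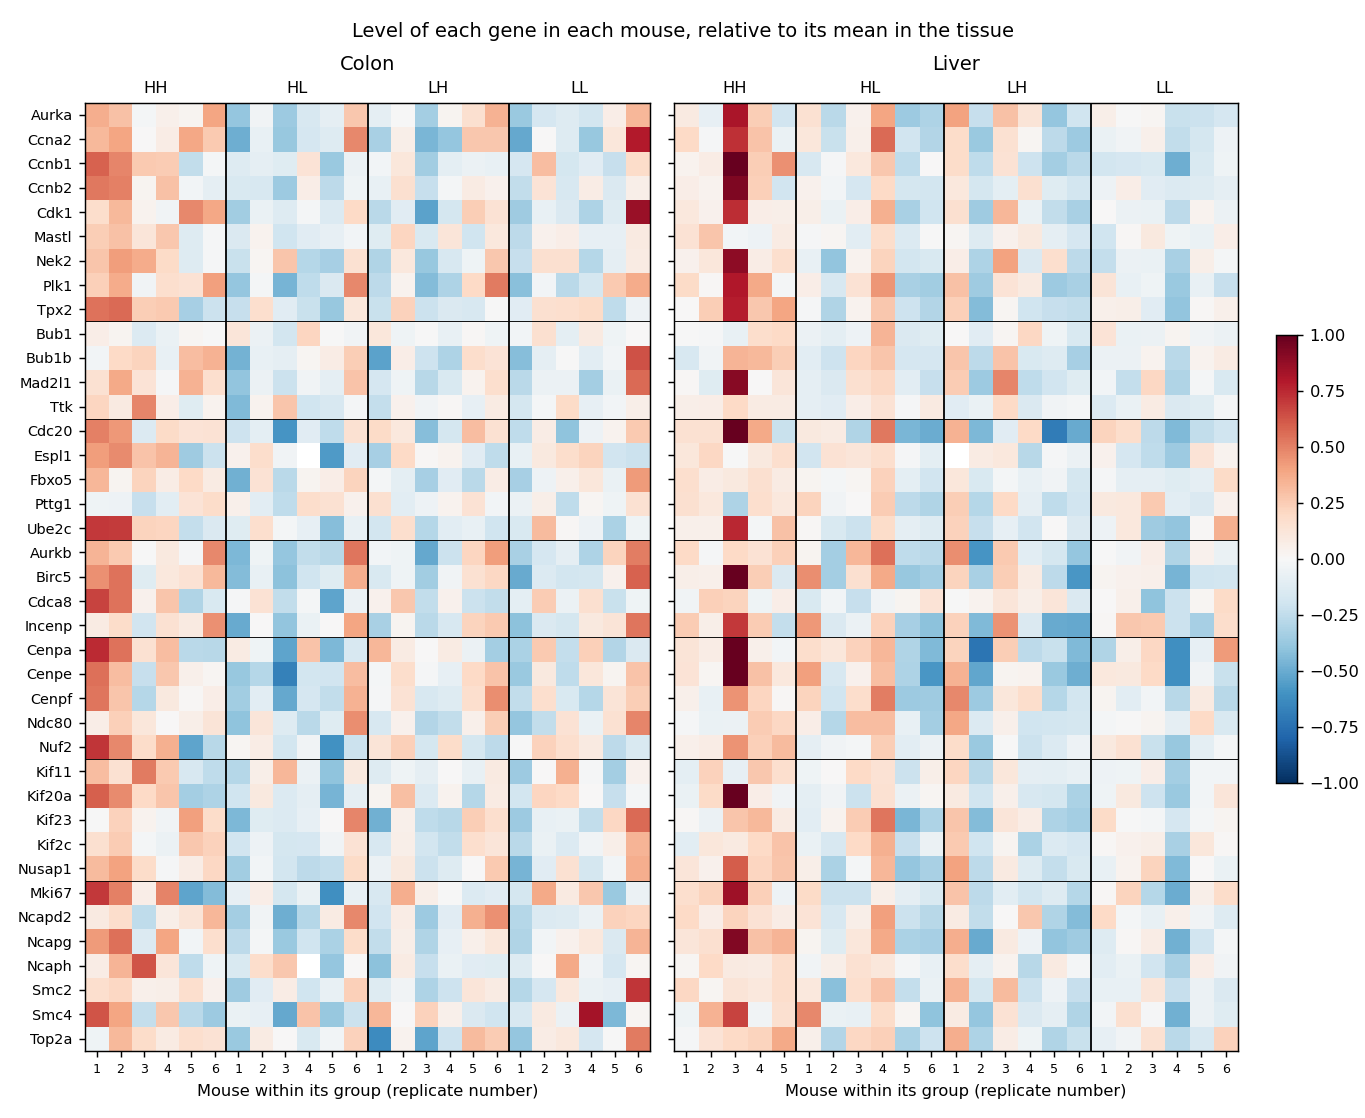
Log2 ratio of each gene (rows, by role) in each mouse (columns, by group) as the difference from the mean of its organ, with the colour scale capped. Cells near the mean of the organ are nearly white. Blank cells are values left out as outlier spots. They are *Espl1* in colon HL mouse 4 and liver LH mouse 1, and *Ncaph* in colon HL mouse 4. The HH columns of colon mice 1 and 2 and liver mouse 3 are the warmest.

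The members varied together from mouse to mouse. After removal of the group means (and of the slide means in the colon), the median Pearson correlation of 666 pairs of 37 genes over 24 colon mice was 0.59, with 92.9% of pairs above 0, and that of members with all other probes was -0.006. Such correlations are across mice that share an array and a slide, and no test was made. *Kif20a* and *Cdca8* had the highest medians with the other members, both 0.75, whereas *Bub1* had 0.02 and *Pttg1* -0.25. In the liver 351 pairs of 27 genes over 23 mice had a median of 0.62, with 95.2% above 0, and the lowest medians were those of *Cdca8* (0.05), *Bub1* (0.27) and *Pttg1* (0.36).

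A further 52 genes of mitosis that are no members, of which 48 were measured, were tested beside them. In the colon 29, 33 and 17 of them were lower in LH, HL and LL at an unadjusted p under 0.05 and 0 were higher, with medians of -0.19, -0.22 and -0.15. In the liver 17, 10 and 19 were lower, and *Wee1*, the kinase that restrains *Cdk1*, was higher in LH and in HL (0.53 in both). Many of the 48 genes were close to the background in the liver. *Kif15* and *Knl1* were above it on 0 liver arrays, and *Cdc25c*, *Cenpu*, *Dlgap5* and *Kif18b* on 1. Of all probes 3.14%, 1.83% and 1.94% were lower in the colon and 6.15%, 2.22% and 2.19% in the liver. This list and those below were chosen with earlier results of these data known, and the comparisons use the same HH mice. Nothing is therefore read from their counts. DNA replication genes (19 measured), which act before mitosis, had 9, 6 and 3 lower in the colon and 3, 2 and 6 in the liver. Subunits of the APC/C itself (12 genes) had 0 lower in the colon in any comparison, and medians of 0.003, -0.01 and 0.006. Of 5 cohesin genes 0 were lower in the colon, and 3 were higher in LH, where 4.94% of all probes were higher. Lists of 12 and 5 genes are too short for 0 lower to differ from the shares of all probes.

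Among 14 regulators of the cell cycle, *Mybl2* differed in the colon by -0.25 in LH, -0.17 in HL and -0.09 in LL and *Foxm1* by -0.15, -0.19 and -0.14, and the repressor *E2f7* by -0.21, -0.31 and -0.22. In all, 3, 3 and 1 regulators were lower at an unadjusted p under 0.05 and 3, 0 and 0 higher. Of all probes 3.14%, 1.83% and 1.94% were lower and 4.94%, 1.46% and 1.5% higher. As many regulators were thus higher as lower in LH, and the genes named do not stand for the list. The mean log2 ratio of the 14 regulators in the colon was -0.14 in HH, -0.17 in LH, -0.21 in HL and -0.18 in LL. For the liver the other regulators are not described. In the liver *Foxm1* differed by -0.29, -0.19 and -0.23 and the CDK inhibitor *Cdkn1a*, which arrests the cycle, by -0.65, -0.63 and -0.61, with an adjusted p of 0.31 or more from limma for both.

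The markers of other cell types were set beside these values, and those counted as lower passed an unadjusted p under 0.05. Markers that were higher at this threshold are not counted here. In LH, HL and LL 3.14%, 1.83% and 1.94% of all probes were lower in the colon. In the liver 6.15%, 2.22% and 2.19% were. Crypt stem and progenitor markers, 8 genes, had a mean log2 ratio of 0.45 in HH and of 0.48 in HL, LH and LL colon, with 1 marker lower in LH and 0 in HL and LL. Absorptive colonocyte markers had means between -0.15 and 0.01, goblet markers between 0.80 and 0.90 and smooth muscle markers between 1.27 and 1.31 in the 4 colon groups. Of 7 goblet markers 1 was lower in LL, and of 8 colonocyte markers 2, 1 and 1 were lower in LH, HL and LL. The 8 B and T cell markers had medians of 0.14, -0.01 and 0.39 and the 5 germinal centre markers -0.02, 0.004 and 0.10 relative to HH, with LL mouse 4 as described. In the liver, 3 of 8 crypt markers were lower in each comparison, the mean of 4 hepatocyte markers was lowest in HH (1.76, against 1.80 in HL, 1.97 in LH and 1.88 in LL), and all 4 lay above HH in LH and LL with 0 past an unadjusted p of 0.05. The mean of 4 erythroid markers was highest in HH (0.52, against 0.40 in HL, 0.32 in LH and 0.45 in LL), with 1 lower in LH. That of the 4 Kupffer markers was 2.73 in HH, 2.62 in HL, 2.23 in LH and 2.59 in LL, and all 4 lay below HH in LH, 1 of them (*Marco*) at an unadjusted p under 0.05. The 8 B and T cell markers averaged -0.14 in HH, -0.19 in HL, -0.33 in LH and -0.21 in LL, with 3 lower in LH (*Cd79b*, *Ms4a1* and *Ptprc*). The part of cell composition in the differences of the mitotic genes was not tested.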

How the data were processed

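Liver and colon RNA of mouse offspring was measured on 48 Agilent 2-colour arrays, 24 per organ, with 1 array of each group on each slide. The deposited scanner output (Feature Extraction 10.10.1.1, per the file headers) holds median intensity values, not normalized, for every spot and its surrounding background in Cy3 and Cy5. A second deposited file holds log2 ratios, per the submitters' notes made with R 3.0.2 and limma. This table ran as reference over mouse and correlated at -0.9997 or closer to -1 with loess ratios of mouse over reference without background correction.

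A local background brighter than its own spot was set to the array's median background, 32 to 640 spots per array. The normexp correction (offset 50) and within-array global loess followed, in limma 3.58.1 (R 4.3.3), with control spots and 102 to 261 outlier spots per array left out, and spots of a probe were averaged as log2 mouse over reference. Probes were named through the RefSeq gene table by accession.

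limma (lmFit and eBayes) was fitted to every probe with values in at least 2 mice of each group, with slide as a fixed block in the colon and none in the liver. Calls required a fold over 1.5 and a Benjamini-Hochberg FDR under 0.05 over all probes. The fits were tested on simulated data. Colon and liver were compared in all 8 groups with slide as a random block. Nothing in the labels says more of the replicates than that they are mice. Deviations from the group means of mice on 1 slide correlated over all probes with a median of 0.36 (0.089 to 0.72) in the colon and 0.17 (-0.32 to 0.67) in the liver, against -0.13 and -0.03 for mice of other slides.

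The members, the gene lists and the tests were chosen with earlier results of these data known. Named with values per group were members fixed by role, and for each comparison the 2 largest differences in each direction. *Bub1* and *Tpx2* were followed through the alternatives, and *Wee1*, *Marco*, *Cd79b*, *Ms4a1* and *Ptprc* named, after their values had been seen. Alternatives changed the background correction, the normalization, the starting signal, the probe, the filter on dim probes, the block, the array position and weights, the threshold and the mice. Added after seeing the data were LL colon mouse 4 left out, slides 7 to 10 alone, slides 9 to 12 alone, mice with *Xist* and low *Eif2s3y* left out and, for the comparison of organs, mice with *Xist* left out.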

Additional observations from a re-analysis of the deposited data

Results flagged for a closer look

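A mouse far from the others of its group was looked for in the member mean and in genes described in full. Only genes above background on all 24 arrays of an organ were searched there. In 176 groups of 5 or 6 mice 16 values lay apart, where chance alone sets 1 apart in about 20 groups. *Ncapg* was thus not searched in the liver, where HH mouse 3 had -1.95 against -2.75 to -2.53 in the other HH mice. HH liver mouse 3, the mouse on 2 arrays, lay above the other 4 HH mice in the member mean (-1.35 against -1.83 to -1.72), *Cdk1* (-0.91 against -1.60 to -1.54), *Mad2l1* (-0.53 against -1.56 to -1.32), *Cdc20* (-1.16 against -3.42 to -2.82), *Cenpa* (-0.30 against -1.49 to -1.34), *Cenpe* (-2.59 against -3.75 to -3.48) and *Kif20a* (-1.47 against -2.78 to -2.52). It lay below them in *Pttg1* (0.86 against 1.27 to 1.33). All are log2 ratios of mouse over reference.

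In the colon, LL mouse 6 lay above the other 5 LL mice in *Cdk1* (0.36 against -0.85 to -0.57) and *Mad2l1* (0.25 against -0.66 to -0.37), and HL mouse 5 lay below the other HL mice in *Mki67* (-1.04 against -0.60 to -0.35). *Mki67* was also low in the other mice of that slide, with -0.95 in HH mouse 5, -0.80 in LL mouse 5 and -0.56 in LH mouse 5, and slides were not taken into account in this search. On the slide of LL mouse 6 the other mice had *Cdk1* at -0.35 to -0.11 and *Mad2l1* at -0.16 to -0.03. In the liver, LL mouse 4 lay below the other LL mice in the member mean (-2.20 against -1.95 to -1.89) and in *Cdk1* (-1.90 against -1.71 to -1.61). LL liver mouse 6 had *Fbxo5* at -1.12 against -1.43 to -1.33, LH liver mouse 1 had *Mki67* at -3.47 against -4.04 to -3.86, and HL liver mouse 4 had *Bub1* at 0.50 against 0.02 to 0.11. The cause of these values was not tested.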

How the results depend on the processing

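With every alternative 0 members were called in any diet comparison, and the medians of LH, HL and LL against HH stayed below 0 in both organs. In the colon no median moved by as much as the SD between mice, but those of the pairs without HH and of the dam lay near 0 and changed sign for LH against HL with median centring (-0.059), for the dam on slides 9 to 12 (0.0051) and for LL against LH without LL mouse 6 (-0.0063). The comparison of organs kept its direction and 31 to 36 calls. Counts below are of members at an unadjusted p under 0.05 in LH, HL and LL against HH unless stated. In the colon they were 8, 17 and 4 without the replicate block (interaction 5, diet of the offspring 6, of the dam 0, LH above HL 1), where slide pairs the mice. In the liver the replicate block gave 17, 7 and 12 or 21, 9 and 20. Median centring gave 18 for HL and 6 for LL in the colon (LH above HL 0, LL against LH 1, offspring 2, dam 3) and 6, 4 and 5 in the liver (interaction 1, offspring 0). Leaving out mice with *Xist* gave 18 for HL and 5 for LL in the colon (interaction 12, offspring 9, dam 3, LL against HL 1) and 1 each for the interaction and the offspring in the liver. Leaving out only those with low *Eif2s3y* gave 9 for LL, 1 for LH above HL and 2 for LL against HL in the colon, and 1 each for the interaction and the offspring in the liver. A fit of only the groups compared gave 7 for LL, 7 for LH above HL and 6 for LL against HL in the colon, and 10 for LH in the liver. Slides 7 to 10 alone gave 34 for LL, 16 for the dam and 1 for the pairs without HH, and slides 9 to 12 alone gave 2, 9 and 0 (interaction 9, offspring 0, dam 0, LH above HL 1, LL against HL 3 and against LH 2).

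In the liver, normexp without the repair gave medians of -0.025 for HL, -0.45 for LL, -0.40 for LH against HL, -0.47 for LL against HL, -0.43 for the dam and -0.068 for the interaction, the last against 0.24, and counts of 10 for LH, 0 for HL, 19 for LL against HL, 35 for the dam and 0 for the interaction and the offspring. Offset 0 gave 6, 1 and 6, processed signals 9, 2 and 3 and Cy3 alone 8, 2 and 3. The dam's diet gave 2 with processed signals, 1 with Cy3 alone and 17 with 2 arrays of 1 mouse as 2 mice, which gave 14 for HL and 5 for the interaction and the offspring. Array position gave 8 for LH, 11 for LL and 2 for LL against HL, array weights 12 for the interaction, and the pairs without HH gave 1 with offset 0 and LL against LH 2 with Cy3 alone. The liver interaction and offspring counts were 0 or 1 under the other settings that moved them. The colon dam count was 0, 2 or 4 and LH above HL 1 under theirs, and LL against LH was 1 with array position. The cause of these changes was not tested.

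With each mouse left out in turn, counts ran in the colon from 13 to 31 for LH, 22 to 36 for HL, 7 to 26 for LL, 16 to 33 for the interaction, 10 to 24 for the offspring, 0 to 12 for the dam, 1 to 5 for LH above HL, 0 to 7 for LL against HL and 0 to 2 for LL against LH. In the liver they ran from 5 to 24 for LH, 1 to 18 for HL, 7 to 19 for LL, 1 to 6 for the interaction, 0 to 5 for the offspring, 5 to 14 for the dam and 0 to 1 for both pairs of LL with HL and LH. The mice that moved the counts against HH by over 1.5 times are named above.

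Single genes, none of them called, crossed 0 as follows (log2 difference from HH). Without the repair of the background it was -0.0045 in LH for *Bub1* and -0.0026 in HL for *Pttg1* in the colon, and 0.096 in HL for *Ndc80*, 0.094 in HL for *Top2a*, 0.022 in HL for *Smc2*, 0.063 in HL for *Fbxo5*, 0.15 in HL for *Aurkb*, 0.13 in HL for *Kif11*, 0.046 in HL for *Ccna2*, 0.051 in HL for *Bub1b*, 0.062 in HL for *Espl1* and 0.013 in LL for *Pttg1* in the liver. With offset 0 it was 0.00096 in LL for *Pttg1* in the colon, and 0.046 in HL for *Kif11* and 0.016 in LL for *Ndc80* in the liver. With processed signals it was -0.00042 in HL for *Pttg1* in the colon, and 0.080 in LH for *Smc2*, 0.095 in LH, 0.40 in HL and 0.00047 in LL for *Kif11*, 0.092 in HL and 0.015 in LL for *Ndc80* and 0.00033 in LL for *Pttg1* in the liver. With median centring it was -0.013 in LH and 0.021 in LL for *Pttg1* and -0.051 in LH for *Bub1* in the colon, and 0.056 in LH, 0.017 in HL and 0.050 in LL for *Bub1* and 0.071 in HL and 0.16 in LL for *Pttg1* in the liver. With Cy3 alone it was -0.043 in HL for *Pttg1* and -0.043 in HL and -0.012 in LL for *Bub1* in the colon, and 0.075 in LH for *Espl1*, 0.0077 in HL and 0.030 in LL for *Ndc80*, 0.020 in HL for *Kif11* and 0.0099 in LL for *Aurkb* in the liver. With array weights it was -0.0016 in LH and -0.00043 in HL for *Pttg1* and -0.026 in LH for *Bub1* in the colon. With array position it was 0.019 in LL for *Pttg1* in the colon, and 0.012 in LL for *Pttg1* in the liver. With the mean of all probes it was -0.10 in LH, -0.16 in HL and -0.083 in LL for *Bub1* in the colon. Without mice with *Xist* it was 0.0067 in LH for *Cenpe*, 0.012 in LL for *Mki67*, 0.052 in LL for *Smc2*, 0.082 in LL for *Pttg1* and 0.015 in LL for *Fbxo5* in the colon, and without those with low *Eif2s3y* 0.035 in LL for *Pttg1*. With the replicate block and the first array of HH mouse 3 it was 0.031 in LL for *Pttg1* in the liver. With 2 arrays of 1 mouse as 2 mice it was 0.057 in LL for *Pttg1* in the liver. On slides 7 to 10 it was 0.048 in LL for *Pttg1* in the colon. On slides 9 to 12 it was 0.071 in LH and 0.016 in LL for *Cenpe*, 0.051 in LH and 0.080 in LL for *Mki67*, 0.028 in LL for *Kif20a*, 0.10 in LL for *Ndc80*, 0.086 in LL for *Smc2* and 0.020 in LL for *Tpx2* in the colon. Without single mice the ranges that crossed 0 were -0.019 to 0.048 for *Bub1* in HL colon, -0.0059 to 0.059 for *Pttg1* in HL colon, -0.021 to 0.036 for *Bub1* in LH colon, -0.17 to 0.049 for *Cenpe* in LH colon, -0.0016 to 0.060 for *Bub1* in LL colon, -0.22 to 0.019 for *Mki67* in LL colon, -0.036 to 0.030 for *Pttg1* in LL colon, -0.13 to 0.0016 for *Ndc80* in HL liver and -0.091 to 0.035 for *Pttg1* in LL liver. The number of arrays and, in the liver, signals near background in 12 members limit all values.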
